A study of Mus musculus with 6 samples.

Results

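The C/EBP family (CCAAT/enhancer-binding proteins) was followed through its 5 genes Cebpa, Cebpb, Cebpd, Cebpe and Cebpg, out of 43432 genes in each count table. The genes were taken by symbol. The family was selected on measured values, namely the levels of its genes in SCI against sham libraries, so this contrast is given for the 5 genes as a description, with no p-value, and nothing is concluded from it. Standard errors and intervals of the members come from a fit over all genes. They draw on the spread between mice of the whole table as well as that of the gene itself. RNA was measured in spinal cord of wildtype C57BL/6 mice. The SCI mice (n = 3) had the cord bruised on 1 side at C5 by an Infinite Horizon impactor set to 50 kdyn, and their tissue was collected after 4 h. The sham mice (n = 3) had the vertebral arch opened (laminectomy) and no contusion. The sources used here give neither age nor sex, and no separate collection time for sham.

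C/EBP proteins bind DNA through a basic region and pair through a leucine zipper, with each other or with other factors of the basic leucine zipper (bZIP) class. C/EBP beta and C/EBP delta are known as mediators of cytokine signals in acute-phase and glial responses. C/EBP alpha is a factor of hepatocytes, fat cells and myeloid cells, C/EBP epsilon acts late in granulocyte maturation, and C/EBP gamma carries no activation domain of its own and also pairs with ATF4.

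The part of the coding sequence in which Cebpa, Cebpb, Cebpe and Cebpg were most alike is printed because it shows what makes these genes a family. It was the in-frame stretch of 60 bases of Cebpb with the most identical bases in the other 3 genes, and it encodes residues of the basic region that contacts DNA. Capitals mark the 35 of 60 positions that were identical in all 4 genes. The sequences were read from GENCODE M21 transcripts (GRCm38), on the strand of each gene.
Cebpa, chr7:35120271-35120330, plus strand: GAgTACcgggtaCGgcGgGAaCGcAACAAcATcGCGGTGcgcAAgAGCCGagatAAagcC
Cebpb, chr2:167689691-167689750, plus strand: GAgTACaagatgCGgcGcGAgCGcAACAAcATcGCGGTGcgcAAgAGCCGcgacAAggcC
Cebpe, chr14:54710710-54710769, minus strand: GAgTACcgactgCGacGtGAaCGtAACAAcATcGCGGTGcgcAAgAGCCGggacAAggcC
Cebpg, chr7:35050588-35050647, minus strand: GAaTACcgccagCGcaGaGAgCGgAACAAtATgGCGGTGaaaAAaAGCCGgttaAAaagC

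Cebpa, Cebpb and Cebpe shared 51 of 60 bases in each pair (85.0%), and Cebpg stood farther away, at 61.7% identity with Cebpb. This likeness did not reach the ends of the transcripts, where the QuantSeq libraries are read. Of the 451 words of 50 bases, the read length, in the last 500 bases of each member's longest coding transcript, 0 occurred in a transcript of another gene for any of the 5 members.

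The genes lie on 4 chromosomes. Cebpa (chromosome 7, 35119293 to 35121928) and Cebpg (chromosome 7, 35046422 to 35056573) are neighbours 62719 bases apart, Cebpb lies on chromosome 2 (167688915 to 167690418), Cebpd on chromosome 16 (15887286 to 15891031) and Cebpe on chromosome 14 (54710360 to 54712174). Cebpb and Cebpd each have a single coding transcript of 1 exon. The 3′ end of Spidr on the opposite strand lies inside the annotated Cebpd gene, and Spidr held 1 to 10 counts in any library. The annotated 3′ end of Cebpd, at 15891031, lies in turn inside the span of Spidr (15889224 to 16146851). The 5′ part of Tmem189 overlaps Cebpb on the opposite strand, and Tmem189 held 165, 169 and 84 counts in SCI 1 to 3 and 113, 138 and 70 in sham 1 to 3, near the 75 counts of Cebpb in sham 3. This overlap ends at 167689822. The annotated 3′ ends of both genes lie outside it, that of Tmem189 at 167642608 and that of Cebpb at 167690418. The sources used here do not give the strand setting of the counting, so reads in such overlaps cannot be told apart. Whether such reads were counted or dropped is not known. Cebpb makes several proteins from 1 mRNA by use of different start codons, which counts of 3′ ends do not separate.

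The libraries held 5364263 to 8229961 counts in SCI and 3407176 to 11543633 in sham. Levels are CPM, counts set relative to library size with the TMM method, which adjusts for depth and composition. Such 3′ counts do not grow with transcript length, so levels of the members can be set beside each other. Neuron and oligodendrocyte markers were present as for cord, at 4942 to 4970 and 5721 to 9599 CPM summed per SCI library and at 4324 to 6153 and 6164 to 8164 CPM per sham library. Against the tissue label, all 15 hepatocyte markers were also detected. Their summed level was 54313 to 58630 CPM in SCI and 42147, 60092 and 99495 CPM in sham 3, sham 1 and sham 2. Albumin (Alb) led that list at 31208 ± 3298 CPM in SCI and 41468 ± 19956 CPM in sham (SD, n = 3 each). The sources used here do not say where liver RNA came from. Since C/EBP genes are active in liver, the 4 members above the limit of detection are given below with this level.

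After contusion, Cebpd was the C/EBP gene whose level differed, by about 5-fold, while Cebpa, Cebpb and Cebpg overlapped between the groups and Cebpe was at the limit of detection. Cebpd, the gene of the inducible C/EBP delta, had 36.3, 48.8 and 36.0 CPM in SCI 1 to 3, against 8.54, 8.12 and 6.15 CPM in sham 1 to 3. Every SCI library stood above every sham library, with no overlap between the groups. The raw counts behind these levels were 821 over the SCI libraries and 172 over the sham libraries. The log2 fold change was 2.38 ± 0.22 (SE), a 5.20-fold higher level, and held rank 44 from the top among the 13560 genes tested. Of the 4 members that passed the filter on low counts, 1 fell among the genes called higher (Cebpd) and 0 among those called lower when edgeR's quasi-likelihood test was run over the whole table (adjusted p under 0.05), beside 0.885% of all genes called higher, 0.0442% called lower and 0.929% called in either direction. Groups without overlap and higher in SCI were found in 1 member, beside 7.76% of all genes. Because the family was chosen on this contrast, the call of Cebpd reuses the values that selected it, and nothing is read from the call or from these shares.

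**Figure D1:**
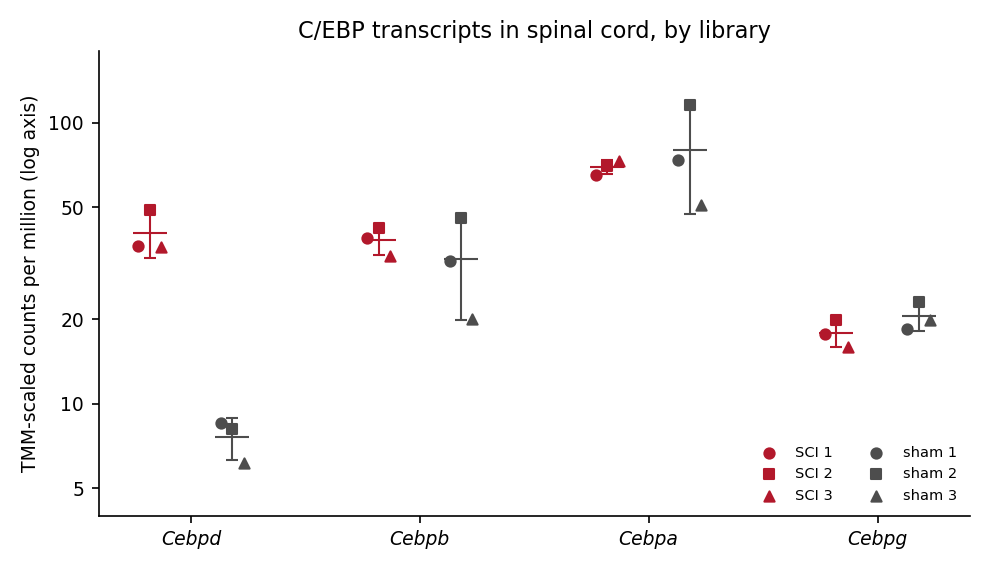
TMM-scaled CPM (log axis) of Cebpd, Cebpb, Cebpa and Cebpg in 3 SCI (red) and 3 sham (grey) libraries. Points are libraries, horizontal marks are means and bars are SD over 3 mice. Cebpd lies at 36.0 to 48.8 CPM in SCI and 6.15 to 8.54 CPM in sham, and the groups of the other genes overlap.

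Cebpd did not follow the liver transcripts. Per 1000 CPM of hepatocyte markers it had 0.620, 0.898 and 0.621 CPM in SCI 1 to 3, against 0.142, 0.0816 and 0.146 CPM in sham 1 to 3. Its level was as high in the fit that carried the hepatocyte level as a covariate (log2 fold change 2.39 ± 0.21, SE). The sums of neutrophil and of red cell markers were higher in SCI. Summed neutrophil markers, led by S100a9 and S100a8, were at 50.7 to 73.9 CPM in SCI and 19.3 to 44.5 CPM in sham, without overlap. Of their 11 genes 5 were tested, with log2 fold changes from 0.06 (Mmp9) to 1.43 (Mmp8), and 0 were called by edgeR. Summed erythroid markers, led by the globins Hbb-bs and Hba-a1, were at 1587 to 4252 CPM in SCI and 603 to 841 CPM in sham, with 5 of 5 tested genes called higher. Monocyte and macrophage markers overlapped, at 94.9 to 111 CPM in SCI and 71.7 to 117 CPM in sham, and 1 of their 6 tested genes was called higher. That gene, Pf4, a chemokine that platelets also carry, was at 8.60 ± 1.22 CPM in SCI and 2.10 ± 0.733 CPM in sham (edgeR adjusted p = 0.00396). Microglia markers overlapped, at 188 to 226 CPM in SCI and 204 to 243 CPM in sham, and 1 of 10 was called lower. It was P2ry12, a purine receptor of resting microglia, at 2.02 ± 0.884 CPM in SCI and 7.71 ± 1.03 CPM in sham (edgeR adjusted p = 0.0157). Astrocyte markers overlapped, at 3152 to 3256 CPM in SCI and 2416 to 3499 CPM in sham, and 1 of 10 was called higher. It was the transcription factor Sox9, at 83.1 ± 12.5 CPM in SCI and 44.5 ± 3.39 CPM in sham (edgeR adjusted p = 0.0215). Pf4, P2ry12 and Sox9 are named as the called genes of their lists, whose tested genes went in both directions. Log2 fold changes ran from -0.53 (Cd163) to 2.12 (Pf4) in monocyte and macrophage markers. They ran from -2.20 (Gpr34) to 0.31 (Fcrls) in microglia markers and from -0.24 (Gja1) to 0.90 (Sox9) in astrocyte markers. Endothelial markers overlapped, at 296 to 338 CPM in SCI and 256 to 354 CPM in sham. The part of any of these cells in the Cebpd level was not tested. In bulk tissue, more cells of a type and more RNA per cell cannot be told apart.

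Cebpb, the gene of the classical interleukin-6 induced factor, had 38.7, 42.1 and 33.5 CPM in SCI 1 to 3, against 32.2, 45.6 and 20.1 CPM in sham 1 to 3. The SCI values lay inside the range of the sham values. The log2 fold change was 0.20 ± 0.24 (SE), with a 95% interval of -0.27 to 0.67. It was 0.51 ± 0.21 without sham 2, where liver transcripts were most abundant, and -0.03 ± 0.21 without sham 3, where they were least abundant. Set against hepatocyte markers, Cebpb had 0.661, 0.775 and 0.577 CPM per 1000 CPM in SCI and 0.535, 0.458 and 0.476 in sham, so on this ratio the groups did not overlap. The share of all genes without overlap on this ratio was not computed, so nothing is read from it. With the hepatocyte level as a covariate the log2 fold change was 0.35 ± 0.17 (SE).

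Cebpa, the liver, fat and myeloid C/EBP, was the most abundant member in every library. It had 65.3, 70.2 and 73.2 CPM in SCI 1 to 3, against 73.7, 115.9 and 50.8 CPM in sham 1 to 3. The SCI libraries were close together and lay inside the sham range, which spanned 2.28-fold. That span is near the 2.36-fold span of hepatocyte markers over the same sham libraries. Per 1000 CPM of hepatocyte markers, Cebpa had 1.11, 1.29 and 1.26 CPM in SCI and 1.23, 1.16 and 1.21 CPM in sham. Over all 6 libraries this ratio varied by only 1.16-fold, a smaller spread than in all but 0.317% of the genes tested. A spread under 1.5-fold was found in 1 of the 4 tested members (Cebpa), in 8 of 15 hepatocyte markers and in 5.01% of all genes tested. The log2 fold change of Cebpa was -0.21 ± 0.24 (SE; 95% interval -0.68 to 0.25), and 0.13 ± 0.18 without sham 2. In the fit that carried the hepatocyte level it was -0.06 ± 0.13.

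Adipocyte markers are given because fat cells also express Cebpa. Of the 8 markers, Plin1 and Lep had no count in any library, and Adipoq and Retn had 1 count each over all libraries. The sum was 1260 to 1710 CPM in SCI and 878 to 1882 CPM in sham. It was led by Car3, which liver also expresses, at 1411 ± 244 CPM in SCI and 1353 ± 504 CPM in sham, followed by the lipid droplet gene Plin4 at 15.6 ± 4.66 CPM in SCI and 6.40 ± 2.15 CPM in sham (SD, n = 3 each). Of the 3 tested markers 0 were called by edgeR, and the adjusted p of Plin4 was 0.0869. The part of fat or liver cells in the level of Cebpa was not tested.

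**Figure D2:**
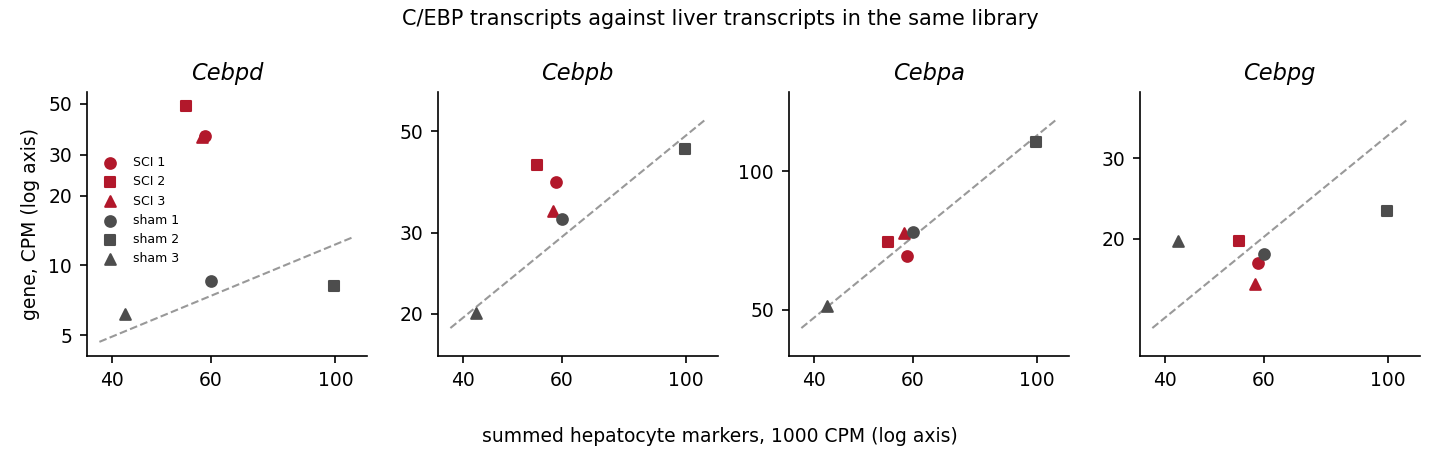
CPM of each gene (log axis) against the summed hepatocyte markers of the same library in units of 1000 CPM (log axis), SCI in red and sham in grey. The dashed line is the mean ratio of the 3 sham libraries. Cebpa stays close to the line in all 6 libraries, with 1.11 to 1.29 CPM per 1000 CPM, while the SCI libraries of Cebpd lie far above it.

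Cebpg, the member without an activation domain, had 17.7, 19.8 and 15.9 CPM in SCI 1 to 3, against 18.5, 23.0 and 19.8 CPM in sham 1 to 3. The ranges overlapped, and the log2 fold change was -0.20 ± 0.20 (SE; 95% interval -0.60 to 0.20). Its sham libraries lay closer together than those of Cebpa and Cebpb. Per 1000 CPM of hepatocyte markers, Cebpg had 0.303, 0.365 and 0.275 CPM in SCI and 0.308, 0.231 and 0.470 CPM in sham, again with overlap. In the fit that carried the hepatocyte level the log2 fold change was -0.18 ± 0.19 (SE). Cebpe, the granulocyte member, had 0 counts in the SCI libraries and 1 count in the sham libraries, that in sham 3. A count of 0 over the SCI libraries allows up to 0.149 CPM (3 counts of the total, counting error only), so no fold change is given. Transcripts of granulocyte precursors were also scarce. Their 10 markers summed to 6.69 to 14.8 CPM in SCI and 1.87 to 11.8 CPM in sham, led by Ngp, a secondary granule protein, at 4.60 ± 1.26 CPM in SCI and 2.19 ± 1.27 CPM in sham, and Chil3 at 1.71 ± 0.738 CPM in SCI and 1.14 ± 0.322 CPM in sham (SD, n = 3 each).

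The order of the genes therefore differed between the groups. In SCI, Cebpa averaged 69.6 ± 4.01 CPM, followed by Cebpd at 40.4 ± 7.27, Cebpb at 38.1 ± 4.35 and Cebpg at 17.8 ± 1.94 CPM. Cebpd and Cebpb did not differ beyond their spread there. In sham, Cebpa averaged 80.1 ± 33.0 CPM, followed by Cebpb at 32.6 ± 12.8, Cebpg at 20.4 ± 2.31 and Cebpd at 7.60 ± 1.27 CPM (SD, n = 3 each). In sham, Cebpb and Cebpg were within their spread of each other, and sham 3 held 75 and 74 counts of them.

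Within a library, depth and scaling cancel. Any part of liver RNA in the level of a member does not cancel, and that part was not tested. The ratio of Cebpd to Cebpb was 0.938, 1.16 and 1.08 in SCI 1 to 3, against 0.265, 0.178 and 0.307 in sham 1 to 3. As a share of all C/EBP counts, Cebpd held 23.0%, 27.0% and 22.7% in SCI 1 to 3, against 6.42%, 4.21% and 6.34% in sham 1 to 3. The 95% Wilson intervals of these shares ran from 19.9% to 29.5% in SCI and from 3.42% to 9.33% in sham, covering counting error only. Both the ratio and the share were lowest in sham 2, where hepatocyte markers were highest (99495 CPM). The share of Cebpa was 41.3%, 38.8% and 46.2% in SCI, against 55.4%, 60.2% and 52.3% in sham. Shares in a library depend on each other, so a higher share of Cebpd lowers those of the other genes. The share of Cebpb was 21.1% to 24.5% in SCI and 20.7% to 24.2% in sham.

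**Figure D3:**
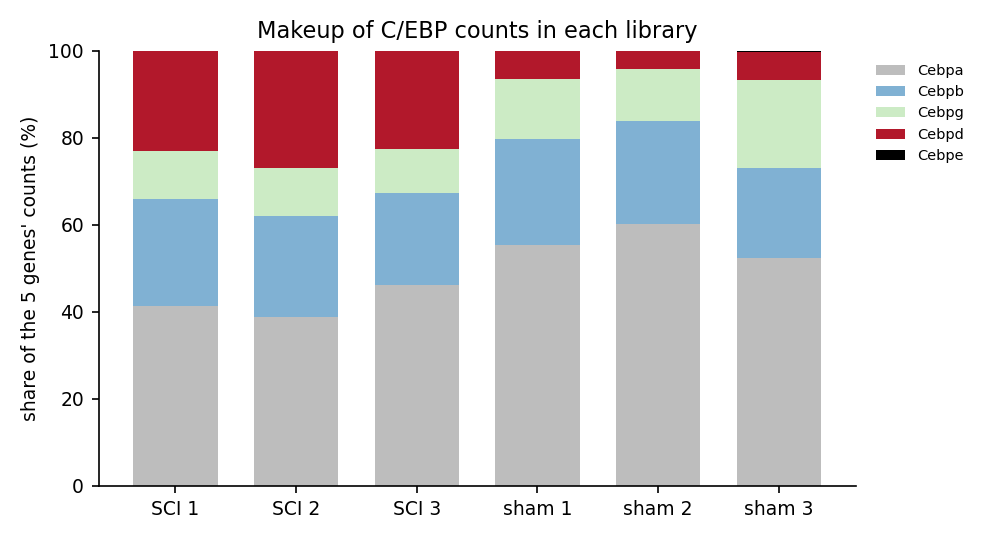
Share of the summed counts of the 5 C/EBP genes held by each gene (%), by library, SCI left and sham right. Cebpd (red) takes 22.7% to 27.0% in SCI and 4.21% to 6.42% in sham.

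The genes closest to each member were found by the root mean square difference between log2 CPM profiles over the 6 libraries, each centred on its own mean, among 10456 other genes with a mean of at least 5 CPM. The closest to Cebpd were Cd14, a co-receptor for bacterial lipopolysaccharide, at a difference of 0.20 log2 units, Thbd, the thrombomodulin of endothelium (0.24), the immediate early gene Ier3 (0.27), the metalloproteinase Adamts9 (0.27) and the actin cross-linker Flnc (0.28), where the median over all genes was 1.21. Cd14 had 11.6 ± 3.38 CPM in SCI and 2.60 ± 0.63 CPM in sham (SD, n = 3 each). Like Cebpd it was highest in SCI 2 and lowest in sham 3, which follows from its choice by likeness. Among the genes closest to Cebpa were Mettl7a1, Cyp2a12, B2m and Hsd11b1, at 0.04 to 0.05 log2 units. Of these, Cyp2a12 is a cytochrome P450 of liver and Hsd11b1 a glucocorticoid-activating enzyme abundant in liver.

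**Figure D4:**
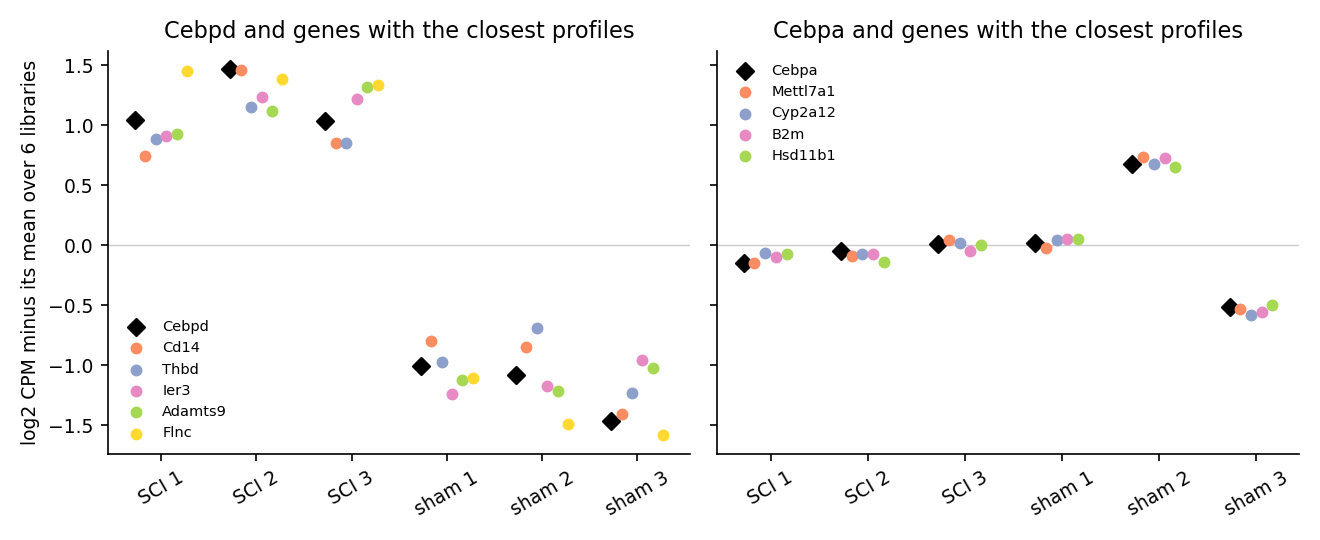
Log2 CPM minus its mean over 6 libraries for Cebpd (left) and Cebpa (right), black diamonds, and for genes with the closest profiles (5 for Cebpd, 4 for Cebpa), SCI left and sham right on each axis. The genes were picked for closeness to the member over these libraries, so each set follows its member's own pattern by selection. Cebpd and its set split by group, while Cebpa and its set are highest in sham 2 and lowest in sham 3.

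The closest genes to Cebpb were Plxnc1, Steap3, Ifi30, Arpc1b and Sp100, at 0.05 to 0.11 log2 units. Those closest to Cebpg were Rhot1, Tomm70a, Rilpl2, Hdac5 and Aamp, at 0.04 to 0.05. These differences describe likeness over 6 libraries, and with profiles as flat as that of Cebpg many genes come close (median 0.30). Between members, Cebpa and Cebpb were the most alike pair (0.25), and Cebpd stood 1.07 to 1.29 from the others.

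The bases before the annotated starts of Cebpa and Cebpb are printed because these members had the most similar profiles. The windows of 250 bases come from RefSeq (GRCm38.p6), read on the plus strand. Capitals mark matches, on either strand, to the C/EBP motif TTNNGCAA, the core of the cAMP response element, TGACG, and the TATA box TATAAA.
Cebpb, chr2:167688665-167688914: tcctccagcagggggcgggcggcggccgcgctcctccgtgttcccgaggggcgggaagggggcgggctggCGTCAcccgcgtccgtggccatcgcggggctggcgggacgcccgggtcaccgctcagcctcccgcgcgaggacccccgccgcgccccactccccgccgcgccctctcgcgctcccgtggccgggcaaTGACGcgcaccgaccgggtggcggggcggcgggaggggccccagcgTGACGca
Cebpa, chr7:35119043-35119292: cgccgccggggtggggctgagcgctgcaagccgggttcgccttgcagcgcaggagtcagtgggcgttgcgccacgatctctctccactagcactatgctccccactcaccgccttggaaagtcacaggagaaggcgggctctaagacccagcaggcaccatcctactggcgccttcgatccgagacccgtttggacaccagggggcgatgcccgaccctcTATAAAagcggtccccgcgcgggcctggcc

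The Cebpb window held 3 TGACG matches and the Cebpa window none, where 17.8% of the 32851 windows of that length in the RefSeq table hold at least 1. The Cebpa window held 1 TATAAA match, found in 12.4% of windows. Neither held TTNNGCAA, found in 9.56% of windows. A match describes letters and not a bound site.

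The surroundings of the family were followed in 10 lists of inputs, partners and targets, 113 genes in all, of which 86 passed the filter. Of these, 10 were called higher and 0 lower (edgeR quasi-likelihood test, adjusted over all 13560 genes), or 11.6% against 0.885% of all genes called higher. Because the lists were chosen with earlier results of these data known, these shares and medians are a description, and no enrichment is read from them. The median log2 fold change was 0.12 over the listed genes and 0.00 over all genes. An unadjusted edgeR p under 0.05 was found in 1001 of all 13560 genes tested. This is the base for the counts at that threshold given for the lists below. The DESeq2 Wald test called 11 higher and limma voom 8. Without sham 1 the calls numbered 5. They numbered 18 with no filter on low counts, and 18 when the fit carried the hepatocyte level.

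Among inputs, 7 of the 9 listed cytokines had too few counts to be tested, and 1 of the 2 tested was called. Il11, a cytokine that signals through the gp130 receptor, had 1.69, 8.25 and 6.30 CPM in SCI 1 to 3, against 0.525, 0.193 and 0 CPM in sham 1 to 3 (edgeR adjusted p = 0.00820). The SCI libraries were all higher, and the call was lost without SCI 2 (adjusted p = 0.0722), with limma voom (0.0808) or with the replicate block (0.0600). Il1b was at 18.9 ± 2.97 CPM in SCI and 11.8 ± 4.02 CPM in sham (adjusted p = 0.519, edgeR). Of the untested cytokines, which were picked here with their values known, Il6 had 24 counts over the SCI libraries and 0 over the sham libraries, at least 8.97-fold higher with 3 counts over the sham libraries as the floor. Its SCI levels were 0.603, 0.434 and 3.15 CPM, so most of the counts came from SCI 3. Tnf had 38 counts in SCI and 2 in sham, a depth-adjusted ratio of 21.3 with a counting interval of 5.51 to 182. Cntf had 0 counts in SCI and 13 in sham. Of 6 tested receptors 0 were called by edgeR, DESeq2 or limma voom, and 2 had an unadjusted edgeR p under 0.05. Il6st, the gene of the gp130 receptor named above for Il11, was at 147 ± 5.74 CPM in SCI and 148 ± 38.5 CPM in sham. Of 9 transcription factors known to act on Cebpb or Cebpd, 4 had an unadjusted edgeR p under 0.05, and the median log2 fold change was 0.51. Egr2 was called, at 4.30 ± 1.47 CPM in SCI and 0.281 ± 0.290 CPM in sham (log2 fold change 3.56 ± 0.60, edgeR adjusted p = 0.00554). Leaving out SCI 1 (adjusted p = 0.0502) or sham 1 (0.0581) ended that call. Stat3, which carries gp130 signals to the nucleus, had 110.5, 107.5 and 116.9 CPM in SCI 1 to 3, against 77.4, 92.8 and 61.8 CPM in sham 1 to 3. Its groups did not overlap, and among the settings run it passed the test only in the fit that carried the hepatocyte level (edgeR adjusted p = 0.00613, and 0.428 without that term).

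Of 7 tested bZIP partners, 1 was called by edgeR, 2 by DESeq2 and 1 by limma voom. An unadjusted edgeR p under 0.05 was found in 6, beside 1001 of all 13560 genes tested, and the median log2 fold change was 0.52. Atf3, an injury-induced factor, had 17.6, 17.2 and 16.5 CPM in SCI 1 to 3, against 2.76, 1.26 and 1.34 CPM in sham 1 to 3 (log2 fold change 3.23 ± 0.32; edgeR adjusted p = 6.37e-05). Atf4, the partner of C/EBP gamma in the amino acid response, was at 194 ± 7.24 CPM in SCI and 135 ± 11.1 CPM in sham (log2 fold change 0.52 ± 0.18; edgeR adjusted p = 0.386). Among the settings run it passed only in the fit that carried the hepatocyte level (edgeR adjusted p = 0.00770). Of the 13 tested amino acid response targets that ATF4 and C/EBP gamma are known to share, 0 were called by edgeR, DESeq2 or limma voom, 3 had an unadjusted edgeR p under 0.05, and the median log2 fold change was 0.20. Psat1, a serine synthesis enzyme and their most abundant member, was at 104 ± 12.9 CPM in SCI and 87.5 ± 21.4 CPM in sham.

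Of 8 regulators that act on C/EBP proteins after translation or on the translation of their mRNA, Trib1 was called. Trib1, an adaptor that brings C/EBP alpha to the COP1 ubiquitin ligase, had 139.9, 143.7 and 185.6 CPM in SCI 1 to 3, against 70.1, 85.0 and 45.5 CPM in sham 1 to 3 (log2 fold change 1.22 ± 0.23; edgeR adjusted p = 0.0119). Its adjusted p was 0.1000 when sham 1 was left out, 0.0775 without SCI 3 and 0.121 with the replicate block, which ended the call. Calr, a chaperone that binds GC-rich C/EBP mRNAs, was at 351 ± 44.8 CPM in SCI and 347 ± 23.9 CPM in sham.

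Inflammatory targets held most of the calls, 6 of 13 tested. Ptgs2, the inducible cyclooxygenase, had 4.59, 6.37 and 3.74 CPM in SCI 1 to 3 and no count in any sham library, at least 37.8-fold higher, taking 3 counts over all sham libraries as the floor (edgeR adjusted p = 0.000441). Ptx3, a soluble pattern receptor, had 57 counts over the SCI libraries and 0 over the sham libraries, at least 21.3-fold higher (edgeR adjusted p = 0.00396). Cd14 rose by 2.10 ± 0.32 on the log2 scale (SE; edgeR adjusted p = 0.00260). The monocyte chemokine Ccl2 was at 4.23 ± 1.93 CPM in SCI and 0.358 ± 0.284 CPM in sham (log2 fold change 3.36 ± 0.60; edgeR adjusted p = 0.00994), a call lost without sham 1 (adjusted p = 0.0827) or SCI 2 (0.0999). Socs3, the feedback inhibitor of STAT3, had a log2 fold change of 2.26 ± 0.45 (edgeR adjusted p = 0.0208), a call lost without sham 1 (0.155), SCI 1 (0.0646) or SCI 2 (0.162) and with limma voom (0.0733). The remaining call was the neutrophil chemokine Cxcl1, named after its values were seen, at 7.79 ± 0.775 CPM in SCI and 1.87 ± 0.477 CPM in sham (edgeR adjusted p = 0.00554, and 0.0623 without sham 1). The median of the list was 0.64, also with Ptgs2 and Ptx3 set at their bounds. Its most abundant member, the complement gene C3, which liver makes in quantity, was at 2814 ± 674 CPM in SCI and 2507 ± 783 CPM in sham (log2 fold change 0.17 ± 0.29).

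**Figure D5:**
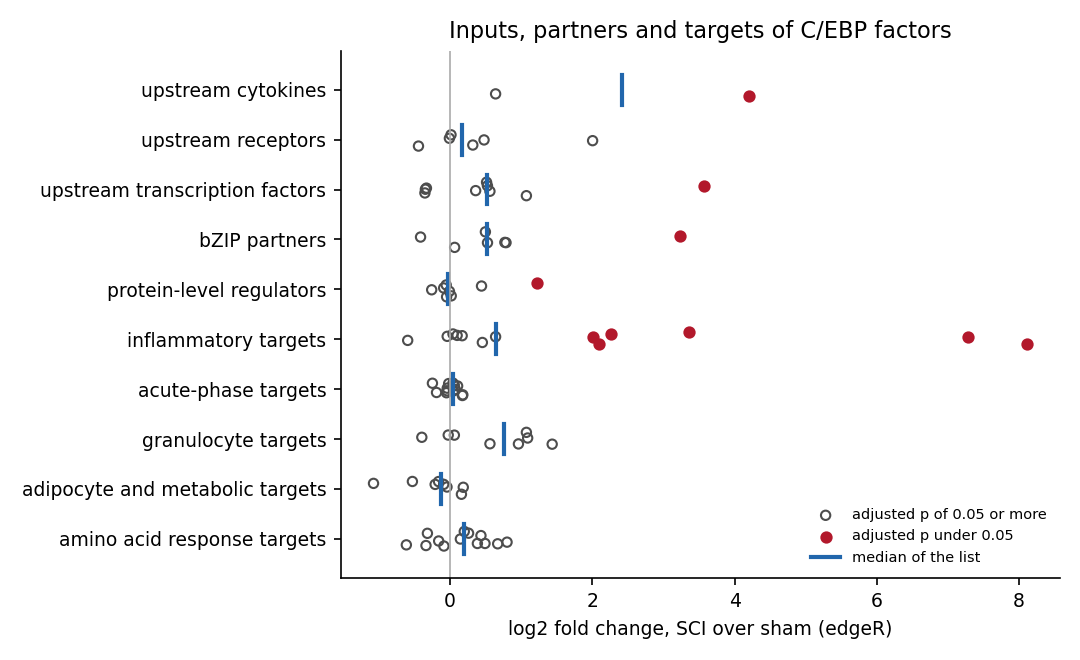
Log2 fold change of SCI over sham for each tested gene of the 10 lists. Filled red points are genes with an edgeR adjusted p under 0.05, open points are the other genes and blue bars are list medians. The 6 called inflammatory targets lie to the right of all other genes of their list, and the 13 acute-phase targets lie around 0.04. Ptgs2 and Ptx3, at 0 counts in sham, are drawn at fitted values that depend on the prior count.

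Of the promoters of the 10 called genes, those of 7 were in the RefSeq table, and the windows of Ptgs2 and Ptx3 held the motif TTNNGCAA, given here in capitals with the bases around it (GRCm38.p6, plus strand). In Ptgs2 the match ran from 69 to 62 bases before the start and is a palindrome, and in Ptx3 it ran from 57 to 50 bases before the start.
Ptgs2, chr1:150099936-150099995: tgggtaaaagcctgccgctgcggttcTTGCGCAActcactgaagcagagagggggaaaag
Ptx3, chr3:66219804-66219863: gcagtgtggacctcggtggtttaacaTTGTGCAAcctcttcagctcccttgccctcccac

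The windows of Atf3, Cxcl1, Egr2, Il11 and Socs3 did not hold these letters. The motif is found in 9.56% of all windows, a share of windows and not of genes. Egr2 had 5 windows and Il11 had 2, so the count of genes with the motif cannot be set beside that share. A link between the motif and the levels was not tested.

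Of 13 acute-phase targets 0 were called by edgeR, DESeq2 or limma voom, 0 had an unadjusted edgeR p under 0.05, and their median log2 fold change was 0.04. Fgb, the fibrinogen beta chain, was at 3810 ± 302 CPM in SCI and 4535 ± 1897 CPM in sham (log2 fold change -0.25 ± 0.31), and its ratio to hepatocyte markers varied by 1.09-fold over the 6 libraries. A spread of this ratio under 1.5-fold was found in 5 of the 13 acute-phase targets, beside 5.01% of all genes tested. The part of liver RNA in their levels was not tested, so these values do not show whether they changed in the cord. Of 8 tested adipocyte and metabolic targets 0 were called by the same tools and 1 had an unadjusted edgeR p under 0.05 (median log2 fold change -0.13), and Scd1, a lipid desaturase, was at 1196 ± 130 CPM in SCI and 1234 ± 365 CPM in sham. Of 8 tested granulocyte targets, which C/EBP epsilon and its relatives are known to drive, 0 were called by the same tools and 4 had an unadjusted edgeR p under 0.05, with a median log2 fold change of 0.76. Lyz2, the lysozyme of myeloid cells, was their most abundant member, at 41.2 ± 9.38 CPM in SCI and 41.5 ± 7.10 CPM in sham. S100a8 and S100a9, the leading neutrophil markers, were at 23.3 ± 5.58 and 27.5 ± 3.62 CPM in SCI, against 10.4 ± 5.38 and 12.5 ± 7.93 CPM in sham (SD, n = 3 each).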

How the data were processed

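Per the labels' protocols, TRIzol and Qiagen columns gave total RNA for Lexogen QuantSeq Forward libraries, read from transcript 3′ ends. Per the series' design text, single-end reads of 50 bases were aligned with STAR 2.7.2b to mm10 with Ensembl GRCm38.96. The sources used here name no counting tool and do not mention molecular identifiers. The authors deposited 1 table of raw read counts per sample. The 3 mice of each group were treated as replicates, and no pair of libraries of a group agreed within sampling noise (chi-square per degree of freedom 6.97 to 38.0).

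The members and gene lists were chosen with earlier results of these data known. Genes passing filterByExpr (13560 of 21524 with a count) were TMM-scaled and compared by edgeR's quasi-likelihood test (edgeR 4.0.16 under R 4.3.3), with group as the only term and all 6 libraries in the fit. Calls had a Benjamini-Hochberg adjusted p under 0.05. The standard error is the absolute log2 fold change over the square root of F. The procedure was tested on simulated data. Alternatives were other scalings and filters, DESeq2 1.42.0, limma voom (3.58.1), a replicate block, the mean log2 CPM of hepatocyte markers as a covariate and leaving out each library.

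Named genes were the members, in each list the called genes (at most 5, by size of change) and the most abundant uncalled gene, the 2 most abundant markers of a list described and the 5 genes closest to each member. The text leaves out some of them, and 1 gene close to Cebpa and the coding stretch of Cebpd are not reported here. The matched symbols covered 42462 of 43432 identifiers. Positions are from GENCODE M21 (GRCm38).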

Additional observations from a re-analysis of the deposited data

How the results depend on the processing

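The members were chosen on this contrast, so their values under other settings of the same libraries add no support. In each of the 14 alternatives 1 member (Cebpd) was called higher and 0 lower. Its log2 fold change ran from 2.22 to 2.45, that of Cebpa from -0.44 to 0.13, that of Cebpb from -0.03 to 0.51 and that of Cebpg from -0.28 to -0.11. Genes called over the whole table (120 higher, 6 lower) numbered 182 and 42 with no filter, and 213 and 29 with the hepatocyte covariate. The lower calls numbered 11 with the DESeq2 Wald test. Leaving out each library gave 62 (without sham 1) to 132 higher and 1 (without sham 1) to 14 (without sham 3) lower. Listed pathway genes called higher (10) numbered 18 with no filter, 18 with the hepatocyte covariate and 5 to 15 without single libraries. The causes were not tested. With the replicate block 1 gene was lower. Same-numbered libraries did not deviate together (correlations of -0.08, -0.07 and -0.17). Mice can be paired without a shared deviation, so this cannot decide whether the numbers pair them. Depth limits Cebpe, for which 3 counts correspond to 0.260 to 0.880 CPM in single libraries.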
